A study of Mus musculus with 36 samples.

Results

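The genes described here are the members of the hallmark mTORC1 signaling collection, in the authors' deposited gene set table, that belong to none of the E2F target, MYC target (version 1), adipogenesis, myogenesis or androgen response collections, less 11 named genes of the redox, hypoxia and p53 programs. Of the 190 mTORC1 hallmark genes listed there, 188 were measured, 55 were left out because they also sit in one of the 5 other collections and 7 because they are among the named genes, which left 126 of the 21650 genes of the expression table. The rule itself uses set membership and names, not measured values. The libraries came from lactating female mice, mated at 8 weeks of age, inoculated through the teat of the third mammary gland once the pups were removed. BALB/c mice received luciferase-expressing 4T1 cells, a mammary carcinoma line, and C57BL/6 mice received Py230 cells, a line from a mammary tumor of a C57BL/6 mouse carrying the polyoma middle T transgene under the MMTV promoter. Glands of each strain given Matrigel without cells were the controls. Tumors or glands were taken 1, 3 and 6 weeks post-inoculation (p.i.), with 3 libraries in each of the 12 groups (36 libraries). Fewer 4T1 than Py230 cells were inoculated. The cell line, the number of cells given and the host strain change together between the 4T1 and Py230 tumors and cannot be told apart. The labels number the 3 tumors or glands of a group without stating that they came from separate mice, so p-values measure the spread between these libraries.

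mTORC1 is the kinase complex through which amino acids, growth factors and energy supply set the rate of cell growth. When active it favors translation of ATF4, which drives amino acid transporters and serine and one-carbon enzymes, it releases the SREBP factors that drive sterol and fatty acid synthesis, and it raises glycolysis through HIF1A. In the mammary gland the same sterol, fatty acid and secretory genes serve milk production, and adipocytes of the gland also make fatty acids. The hallmark collection is broader than these enzymes: 44 of the 126 members fell into 7 metabolic role lists (glycolysis, sterol, fatty acid, serine and one-carbon, nucleotide, amino acid transport, and redox and heme) and 82 into 9 other lists. The largest of those were signaling and cytoskeleton with 19 members, endoplasmic reticulum (ER) folding and secretion with 17, and proteasome, ubiquitin and chaperones with 13. The integrated stress and growth arrest response (the stress response members below) and the leukocyte-expressed genes had 10 each. The cell division genes Bub1 and Ccnf also remained in the set. A label of metabolic genes outside the cell cycle therefore describes only some of the members.

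All values are the deposited scores, which average 0 with an SD of 1 within each library, so a difference of 1 is 1 SD of the gene scores within a library. Across the 13567 genes with an authors' mean normalized count of at least 100, a score unit corresponded to 2.78 log2 units of that count (r = 0.972, across genes, which are not independent replicates). That figure is a guide to the scale and was not used to turn score differences into folds. The read depth behind each library is unknown. The median member had a mean normalized count of 1010, against 230 for all genes, and 4 members were below 100. In bulk tissue, fewer cells of a type and less RNA per cell cannot be told apart. Differences were tested with limma across all genes (Benjamini-Hochberg adjusted p, threshold 0.05), and "called" below means past that threshold.

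Library pairs of the same group correlated at 0.947 or more across genes. At week 3 p.i. the mean score of 11 adipocyte markers was 0.566 in 1 of the 4T1 tumors and 1.90 in both others, and it was 0.296 in 1 of the Py230 tumors against 1.46 and 1.69, so results of that week are also given without those 2 libraries. The Py230 tumors of week 1 p.i. could hardly be separated from Matrigel-treated C57BL/6 glands: 0.00924% of all genes were called between them, and their luminal and proliferation markers gave no call.

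Promoter sequences are shown first for 6 members, 3 ER chaperone genes and 3 genes with a match to the letters of the amino acid response element. RefSeq windows of 300 bases (250 before and 50 after a start site, build GRCm38.p6) were found for 103 of the 126 members, 130 windows in all, and were searched on both strands for 5 motifs. The ER stress response element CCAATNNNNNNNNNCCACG, the site through which ATF6 acts on chaperone genes, was in 3 of the 130 member windows (2.31%), those of Hspa5, Hsp90b1 and Calr, and in 0.119% of all 32851 windows. This motif was chosen after the expression values of those 3 genes were known. The windows are printed 5′ to 3′ along the gene, with the element in capitals on whichever strand it was matched.
Hspa5, chr2:34771840-34772139, + strand: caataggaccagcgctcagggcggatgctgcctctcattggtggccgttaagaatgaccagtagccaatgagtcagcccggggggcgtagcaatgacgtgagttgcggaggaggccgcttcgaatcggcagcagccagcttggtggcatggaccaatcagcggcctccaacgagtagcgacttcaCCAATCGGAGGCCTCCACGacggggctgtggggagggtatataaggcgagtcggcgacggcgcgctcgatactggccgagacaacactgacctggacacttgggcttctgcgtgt
Hsp90b1, chr10:86705395-86705694, - strand: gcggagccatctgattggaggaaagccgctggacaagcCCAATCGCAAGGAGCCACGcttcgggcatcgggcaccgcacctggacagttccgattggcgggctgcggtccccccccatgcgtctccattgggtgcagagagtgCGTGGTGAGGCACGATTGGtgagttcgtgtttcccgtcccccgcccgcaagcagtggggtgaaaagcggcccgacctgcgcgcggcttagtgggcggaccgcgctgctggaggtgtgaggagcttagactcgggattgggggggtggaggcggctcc
Calr, chr8:84846882-84847181, - strand: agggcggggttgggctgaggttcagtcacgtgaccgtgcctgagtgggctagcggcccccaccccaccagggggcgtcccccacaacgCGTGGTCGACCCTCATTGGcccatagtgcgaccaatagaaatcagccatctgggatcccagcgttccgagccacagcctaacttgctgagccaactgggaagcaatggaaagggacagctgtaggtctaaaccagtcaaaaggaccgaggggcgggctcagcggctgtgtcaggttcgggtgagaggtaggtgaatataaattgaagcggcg

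In Hspa5 the element began at position -65 from the start site, and Hsp90b1 held 2 copies, beginning at -212 and, on the opposite strand, -107. That of Calr began at -162 on the opposite strand. The amino acid response element TGATGNAA, a letter pattern of ATF4 and C/EBP sites, was in 8 member windows (6.15%, against 3.97% of all windows), those of Asns, Fgl2, Got1, Nupr1, Psmd13, Slc1a4, Trib3 and Vldlr. Those of Trib3, Nupr1 and Vldlr are shown because these genes differed between the tumors in different directions and weeks, and the capitals mark the match, on the opposite strand in each. The match began at 14 in Trib3, after the start site, at -110 in Nupr1 and at -200 in Vldlr.
Trib3, chr2:152344011-152344310, - strand: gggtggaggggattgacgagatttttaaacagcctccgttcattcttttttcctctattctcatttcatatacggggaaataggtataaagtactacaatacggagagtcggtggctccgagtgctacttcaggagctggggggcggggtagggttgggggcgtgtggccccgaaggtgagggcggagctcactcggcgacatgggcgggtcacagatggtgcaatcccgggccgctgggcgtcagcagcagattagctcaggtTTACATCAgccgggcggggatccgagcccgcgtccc
Nupr1, chr7:126625421-126625720, - strand: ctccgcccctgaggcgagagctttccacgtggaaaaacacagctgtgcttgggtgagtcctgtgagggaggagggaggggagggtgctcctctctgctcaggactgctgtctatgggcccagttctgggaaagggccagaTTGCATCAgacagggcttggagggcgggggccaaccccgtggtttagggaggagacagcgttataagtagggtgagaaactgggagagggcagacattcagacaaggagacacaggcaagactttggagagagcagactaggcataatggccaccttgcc
Vldlr, chr19:27216770-27217069, + strand: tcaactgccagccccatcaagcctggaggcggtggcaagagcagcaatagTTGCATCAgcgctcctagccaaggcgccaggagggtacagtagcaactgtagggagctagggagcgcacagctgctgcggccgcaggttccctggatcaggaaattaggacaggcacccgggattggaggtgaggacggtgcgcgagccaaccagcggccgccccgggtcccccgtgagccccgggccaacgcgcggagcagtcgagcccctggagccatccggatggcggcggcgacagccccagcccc

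The sterol regulatory element TCACNCCAC was in 4 member windows (3.08%, against 1.24%), none of a sterol enzyme, and 23 members, Sqle and Stard4 among them, had no window. The E-box CACGTG was in 11.5% of member windows against 7.15%, and the CCAAT box, which is also the first part of the ER element, in 46.2% against 37.4%. A match is a description of letters and does not show that a factor binds.

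At week 1 p.i., members of the protein folding machinery of the ER and members expressed by leukocytes stood higher in the 4T1 tumors. Of the 126 members 29 were called, 25 higher and 4 lower in 4T1, where 19.4% of all genes were called, 11% higher and 8.43% lower. The median difference of the members was 0.0523 and that of all genes 0.00552. Of the 17 ER members 9 rose and none fell. The count of 29 fell to 11 without the first 4T1 tumor of that week, the largest loss on leaving out 1 library, and to 2 (Sdf2l1 and Coro1a, where 0.305% of all genes were called) when the Matrigel glands of each strain were subtracted.

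**Figure D1:**
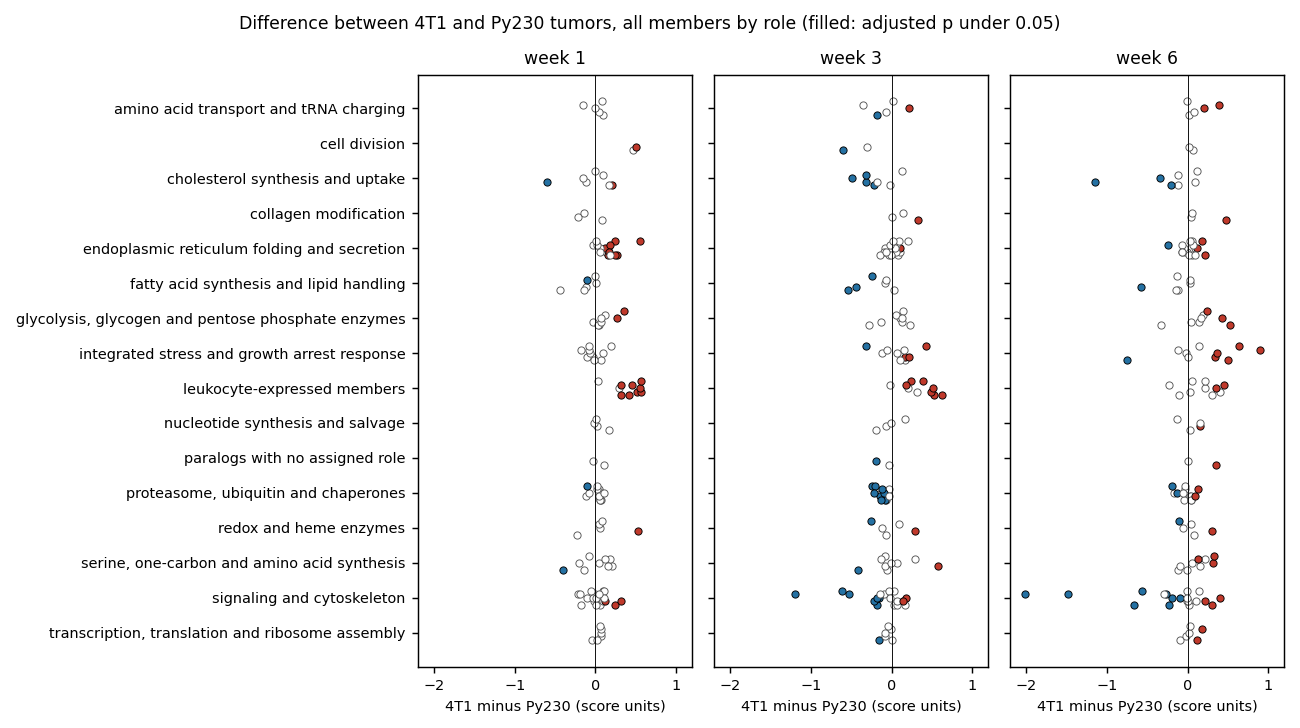
Difference in score between 4T1 and Py230 tumors (x axis, score units) for every member, by role list (y axis), at 1, 3 and 6 weeks p.i. in 3 panels. Filled points were called by limma. Most ER members lie to the right of 0 at week 1 p.i., the cholesterol and proteasome members mostly to the left at week 3 p.i., and Igfbp5 at -2.02 and Pik3r3 at -1.49 lie farthest left at week 6 p.i.

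Sdf2l1, a cofactor of the ER chaperone BiP, had scores of 1.12, 0.75 and 1.14 in the 3 4T1 tumors of week 1 p.i. and of 0.409, 0.48 and 0.445 in the Py230 tumors. The groups did not overlap, and the difference was 0.558 ± 0.11 (SE, n = 3 per group, limma adjusted p = 0.00115). Hspa5, which encodes BiP itself, stood at 2.38, 2.14 and 2.33 against 2.05, 2.04 and 2.05, a difference of 0.238 ± 0.061 (limma adjusted p = 0.00854). In Calr, a chaperone that binds glycoproteins, the values were 2.40, 2.24 and 2.36 against 2.13, 2.05 and 2.03 (0.261 ± 0.0561, limma adjusted p = 0.00244). Hsp90b1, the HSP90 of the ER, had 2.28, 2.07 and 2.21 against 2.00, 1.92 and 1.93 (0.239 ± 0.0608, limma adjusted p = 0.00816). Each of these 4 genes was higher in all 3 4T1 tumors than in any Py230 tumor, with the second 4T1 tumor the lowest of its group. The other ER members that rose were Rpn1, a subunit of the enzyme that attaches glycans (0.186), Serp1 (0.163), Sec11a, a subunit of the signal peptidase (0.159), the peptidyl-prolyl isomerase Fkbp2 (0.150), and Rab1a, a GTPase of transport from the ER to the Golgi (0.119). Leaving out 1 library gave 4 to 11 of the 17 higher. At weeks 3 and 6 p.i. fewer ER members differed: Fkbp2 alone rose at week 3 p.i. (0.110), and at week 6 p.i. Hspa5 (0.212), Hsp90b1 (0.181) and Ssr1 (0.112) were higher and Gga2 lower (-0.240). In a list of 19 genes of the unfolded protein response, which shares some members with this set, 12, 3 and 8 were higher at weeks 1, 3 and 6 p.i. and none lower.

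**Figure D2:**
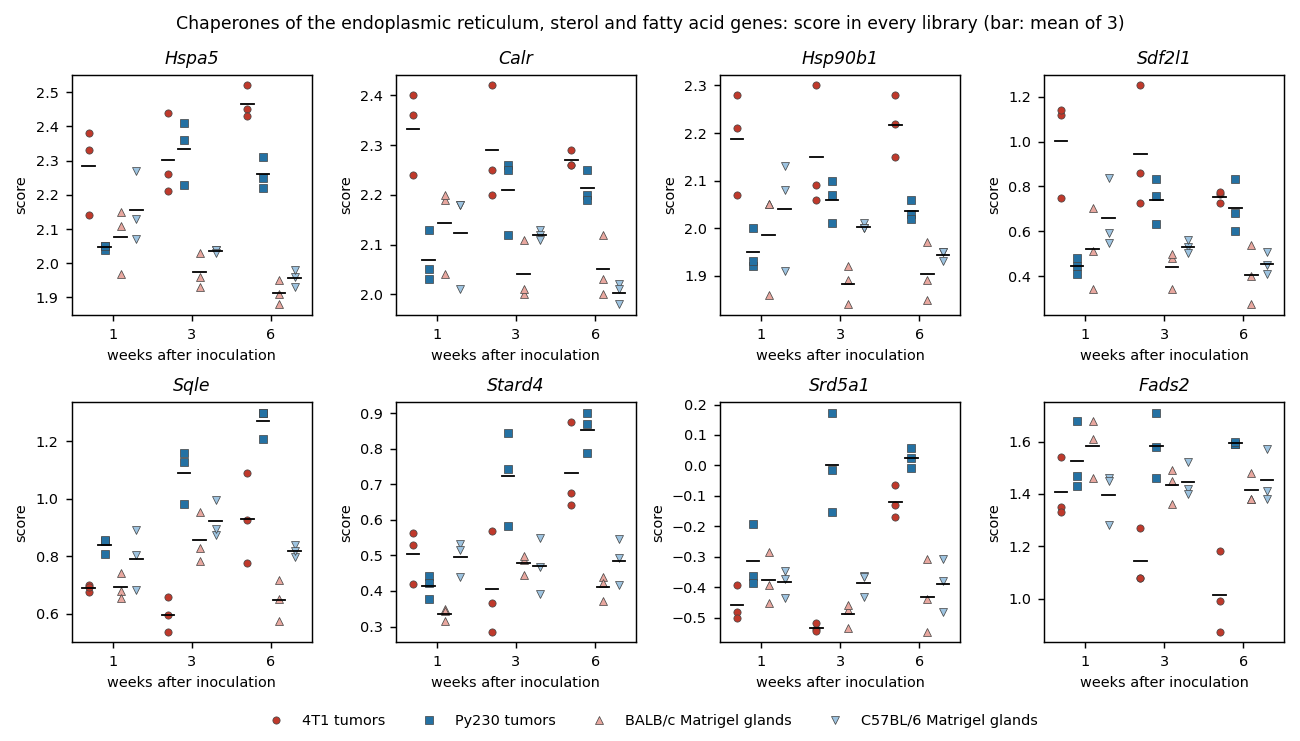
Scores (y axis, score units) of ER and sterol members in each library by group and week p.i. (x axis), with 1 point per library and the group mean as a bar. The 3 4T1 points of Sdf2l1 and Hspa5 lie above the Py230 points at week 1 p.i., and the 3 4T1 points of Sqle lie below the Py230 points at week 3 p.i.

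Of the 10 leukocyte-expressed members 8 were higher in 4T1 at week 1 p.i. and none was lower. Itgb2, the beta chain of the leukocyte integrins, had 2.01, 1.54 and 1.75 in the 4T1 tumors against 0.851, 1.33 and 1.42 in the Py230 tumors (0.570 ± 0.164, limma adjusted p = 0.0168). Sla, an adaptor of antigen receptor signaling, had 1.24, 0.894 and 1.16 against 0.283, 0.599 and 0.717 (0.563 ± 0.143, limma adjusted p = 0.00814). The first Py230 tumor was the lowest library for both genes. Without it the differences were 0.396 for Itgb2 (limma adjusted p = 0.132) and 0.438 for Sla (limma adjusted p = 0.0678), and only 2 of the 10 members were then called. Without the first 4T1 tumor they were 0.447 (limma adjusted p = 0.114) and 0.493 (limma adjusted p = 0.0545), and Itgb2 also lost its call without the third (0.577, limma adjusted p = 0.0577). The general leukocyte markers moved with these genes: 9 of 10 were higher in 4T1, with a mean score of 1.41 to 1.72 in the 4T1 tumors and 0.917 to 1.28 in the Py230 tumors, and Itgb2 and Coro1a belong to both lists. Of the T cell markers 7 of 10 were also higher, and of the markers of lactating epithelium 7 of 10. The mean of the adipocyte markers was lower (1.02 to 1.46 against 1.53 to 1.69, 1 of 11 called) and that of the proliferation markers higher (0.302 to 0.75 against 0.116 to 0.176, 2 of 12 called). The second 4T1 tumor, the lowest of its group for the 4 ER genes given above, had the most fat and the least proliferation marker signal of the 3. The part of these cells in the ER and leukocyte results was not tested.

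Among the 4 members lower in 4T1 at week 1 p.i. was Vldlr, a lipoprotein receptor, with 0.32, 0.755 and 0.332 against 1.19, 1.00 and 1.03 (-0.604 ± 0.148, limma adjusted p = 0.00625). Phgdh, the first enzyme of serine synthesis, had -0.206, -0.165 and -0.204 against 0.374, 0.25 and -0.0061 (-0.398 ± 0.101, limma adjusted p = 0.00797). Neither gene overlapped between the groups, but Phgdh lost its call without the first Py230 tumor (-0.314, limma adjusted p = 0.0649). Matrigel glands of the strains also differed in Phgdh at week 3 p.i. (-0.376, BALB/c minus C57BL/6) and week 6 p.i. (-0.401). After subtraction of the glands of week 1 p.i. neither gene was called. Phgdh was then -0.125 (limma adjusted p = 0.683) and Vldlr -0.556 (limma adjusted p = 0.157). Psmb5, a catalytic subunit of the proteasome, was lower by a small margin, with 0.483, 0.444 and 0.530 against 0.567, 0.601 and 0.600 (-0.104 ± 0.0371, limma adjusted p = 0.0499), a call that was lost on leaving out any of 28 libraries. Its difference between the glands was -0.166 at that week, and after subtraction of the glands it was 0.0629 (limma adjusted p = 0.556). Glrx, a glutaredoxin, was higher in 4T1 at all 3 weeks, by 0.527, 0.292 and 0.297, with 1.09, 0.738 and 1.16 against 0.421, 0.498 and 0.489 at week 1 p.i. (SE 0.0959, limma adjusted p = 0.000505). Ccnf, a cyclin, had 0.448, 0.130 and 0.507 against -0.074, -0.102 and -0.25 (0.504 ± 0.144, limma adjusted p = 0.0159), and its adjusted p rose to 0.0753, 0.0957 and 0.0636 without the first 4T1, the third 4T1 or the third Py230 tumor.

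At week 3 p.i. some of the sterol, fatty acid and proteasome members were lower in 4T1 and none was higher. A total of 46 members were called, 17 higher and 29 lower, where 30.3% of all genes were called, 11.9% higher and 18.5% lower, so the share among the members (46 of 126) lies close to that of all genes. The median was -0.0293 for the members and -0.0112 for all genes. Of the 7 cholesterol members 4 fell, of the 6 fatty acid and lipid members 3 and of the 13 proteasome, ubiquitin and chaperone members 8. Without the first Py230 tumor 24 members were called, and without the 2 tumors low in fat markers 22, 4 higher and 18 lower. Subtraction of the glands left 21 members (9.15% of all genes called).

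Sqle, squalene epoxidase of the sterol pathway, had 0.594, 0.538 and 0.660 in the 4T1 tumors and 1.16, 1.13 and 0.983 in the Py230 tumors (-0.493 ± 0.0615, limma adjusted p = 1.4e-06). Every 4T1 value was below every Py230 value. Stard4, a sterol carrier, had 0.569, 0.286 and 0.366 against 0.844, 0.742 and 0.584 (-0.317 ± 0.065, limma adjusted p = 0.000624). Tmem97, a sterol-responsive membrane protein, was lower by 0.222, and its values overlapped between the groups. By week 6 p.i. Sqle (-0.340), Tmem97 (-0.201) and Vldlr were lower, while Stard4 (-0.122) was not called. After subtraction of the glands Sqle was -0.170 (limma adjusted p = 0.16) and Tmem97 -0.167 (limma adjusted p = 0.191) at week 6 p.i., neither called, and Sqle stayed called at week 3 p.i. (-0.427, limma adjusted p = 0.00359). In a list of 27 genes of the mevalonate and sterol pathway, members included, none was higher and 11 were lower at week 3 p.i., among them Hsd17b7 (-0.392), and 1 was higher and 4 lower at week 6 p.i. The transcripts of the 2 sterol and lipid regulators were lower in 4T1 too: Srebf1 by 0.505 at week 3 p.i. (limma adjusted p = 5.2e-05) and 0.649 at week 6 p.i. (limma adjusted p = 3.6e-07), and Srebf2 by 0.230 (limma adjusted p = 0.00081) and 0.249 (limma adjusted p = 0.00015).

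Of the lipid members, Srd5a1, a steroid reductase, had -0.536, -0.518 and -0.544 in the 4T1 tumors of week 3 p.i. and 0.173, -0.0158 and -0.152 in the Py230 tumors (-0.534 ± 0.0668, limma adjusted p = 1.4e-06). The 4T1 values lay close together and the Py230 values were spread, all above them. Fads2, a fatty acid desaturase, had 1.08, 1.08 and 1.27 against 1.71, 1.58 and 1.46 (-0.443 ± 0.082, limma adjusted p = 0.000222), and it was lower again at week 6 p.i. (-0.580). Rdh11, a retinol dehydrogenase, was lower at week 3 p.i. (-0.244), when the glands differed the other way (0.261, BALB/c minus C57BL/6), and its -0.138 at week 6 p.i. was not called. Acaca, which makes malonyl-CoA for fatty acid synthesis, was not called at any week between the tumors, and at week 3 p.i. its 4T1 values were 0.889, 2.19 and 2.23, the low one in the tumor with few fat markers.

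The 8 proteasome, ubiquitin and chaperone members that fell at week 3 p.i. were Psmb5, Uchl5 (-0.216), Psmg1 (-0.202), Psmd12 (-0.145), Stip1 (-0.129), Psme3 (-0.117), Psmd13 (-0.0966) and Psmc2 (-0.0800). Psmb5 had 0.471, 0.420 and 0.478 against 0.775, 0.728 and 0.606, with no overlap (-0.247 ± 0.0371, limma adjusted p = 1.9e-05), but the glands differed by -0.159 and after subtraction the value was -0.0881 (limma adjusted p = 0.303). The count of 8 became 3 without the first Py230 tumor, 2 without the 2 tumors low in fat markers and 4 after subtraction. Proliferation markers moved with these members: 9 of 12 were lower in 4T1 at that week. Of the 10 luminal epithelial markers 5 were lower, and 8 of 10 macrophage and 5 of 10 fibroblast markers were higher. The part of these cells in the week 3 p.i. results was not tested.

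Prdx1, a peroxide-reducing enzyme, had 1.32, 1.28 and 1.31 against 1.65, 1.57 and 1.43 (-0.250 ± 0.0391, limma adjusted p = 3.3e-05). Slc9a3r1, a scaffold of the apical membrane of epithelia, had 1.19, 0.818 and 0.855 against 1.81, 1.63 and 1.27 (-0.616 ± 0.102, limma adjusted p = 6.9e-05). Eef1e1, a component of the multi-tRNA-synthetase complex, had 0.281, 0.191 and 0.270 against 0.537, 0.414 and 0.322 (-0.177 ± 0.0459, limma adjusted p = 0.00465), and it lost its call without the first Py230 tumor (-0.121, limma adjusted p = 0.0691). After subtraction of the glands Slc9a3r1 was -0.414 (limma adjusted p = 0.0702) and Eef1e1 -0.174 (limma adjusted p = 0.0893), and without the 2 tumors low in fat markers Eef1e1 was -0.137 (limma adjusted p = 0.0683). The first Py230 tumor was the highest library for each of these 3 genes.

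Members higher in 4T1 at week 3 p.i. included Bcat1, the cytosolic enzyme that starts breakdown of branched-chain amino acids, with 0.0753, 0.0716 and -0.267 against -0.663, -0.597 and -0.597 (0.579 ± 0.108, limma adjusted p = 0.00023). Cfp, properdin of the complement system, had 1.81, 1.48 and 1.25 against 0.693, 0.967 and 1.00 (0.624 ± 0.146, limma adjusted p = 0.00211). Fgl2, a fibrinogen-like protein of leukocytes, had 1.90, 1.54 and 1.38 against 1.05, 1.12 and 1.05 (0.532 ± 0.115, limma adjusted p = 0.001). The 4T1 tumor low in fat markers was the highest library for Cfp and Fgl2. Of the 10 leukocyte-expressed members 7 were higher at this week. With the 2 tumors low in fat markers left out, 1 of the 10 was called, and Cfp differed by 0.379 (limma adjusted p = 0.129). After subtraction of the glands Fgl2 was 0.470 (limma adjusted p = 0.0657).

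At week 6 p.i., some stress response members were higher in 4T1 and several receptors and signaling genes were far lower. The test called 46 members, 29 higher and 17 lower, where 40.8% of all genes were called, 24.1% higher and 16.7% lower. The median member differed by 0.0334 and the median gene by 0.0364. The split of 29 to 17 depended on the scaling: it was 23 to 23 after robust rescaling or quantile normalization and 24 to 23 after cyclic loess. Of the 10 members of the integrated stress and growth arrest list 5 rose and 1 fell, a count that was the same on leaving out any 1 library. Neutrophil markers moved with this week: 10 of 10 were higher in 4T1 (mean score 0.155 to 0.336, against -0.738 to -0.609 in Py230), and 7 of 10 markers of lactating epithelium were lower, while proliferation, adipocyte and general leukocyte markers gave no call. The mean of the luminal epithelial markers was lower in every 4T1 tumor (0.829 to 1.19 against 1.40 to 1.54, 4 of 10 called lower) and that of the macrophage markers higher (1.40 to 1.43 against 1.22 to 1.27, none of 10 called). Their part in the result was not tested.

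Stc1, a secreted glycoprotein induced by hypoxia and ER stress, had 0.997, 0.701 and 1.31 in the 4T1 tumors of week 6 p.i. and 0.143, 0.209 and -0.0322 in the Py230 tumors (0.895 ± 0.108, limma adjusted p = 1.6e-07). Nfil3, a leucine zipper transcription factor, had 0.884, 0.836 and 0.745 against 0.0995, 0.252 and 0.205 (0.636 ± 0.109, limma adjusted p = 3.1e-05). Nupr1, a small chromatin protein of the stress response, had 1.26, 0.945 and 1.07 against 0.564, 0.491 and 0.730 (0.496 ± 0.0782, limma adjusted p = 1.0e-05). None of these 3 genes overlapped between the tumors. Sqstm1, a receptor of selective autophagy, stood at 1.99, 1.94 and 1.79 against 1.52, 1.53 and 1.59 (0.360 ± 0.0468, limma adjusted p = 5.7e-07). Ddit3, which encodes the transcription factor CHOP, had 0.355, 0.308 and 0.161 against -0.104, -0.059 and -0.0209 (0.336, limma adjusted p = 4.6e-06). The member that fell was Btg2, an antiproliferative target of p53, with 0.627, 0.613 and 0.672 against 1.34, 1.29 and 1.53 (-0.748 ± 0.0716, limma adjusted p = 3.1e-09). Trib3 (0.146), Ddit4 (-0.0227), Fam129a (-0.120) and Ppp1r15a (-0.000564) were not called. Trib3 was lower in 4T1 at week 3 p.i. (-0.319, limma adjusted p = 0.00166, and -0.426 after subtraction of the glands), and its difference rose by 0.466 from there to week 6 p.i. (limma adjusted p = 0.00147), when it was 0.285 after subtraction (limma adjusted p = 0.0423). The transcript of Atf4 itself was not called at any week (differences 0.0127, 0.0608 and 0.0808), and in a list of 22 genes of ATF4 and the integrated stress response, members included, 5 were higher and 2 lower at week 6 p.i., a share close to that of all genes (24.1% higher).

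**Figure D3:**
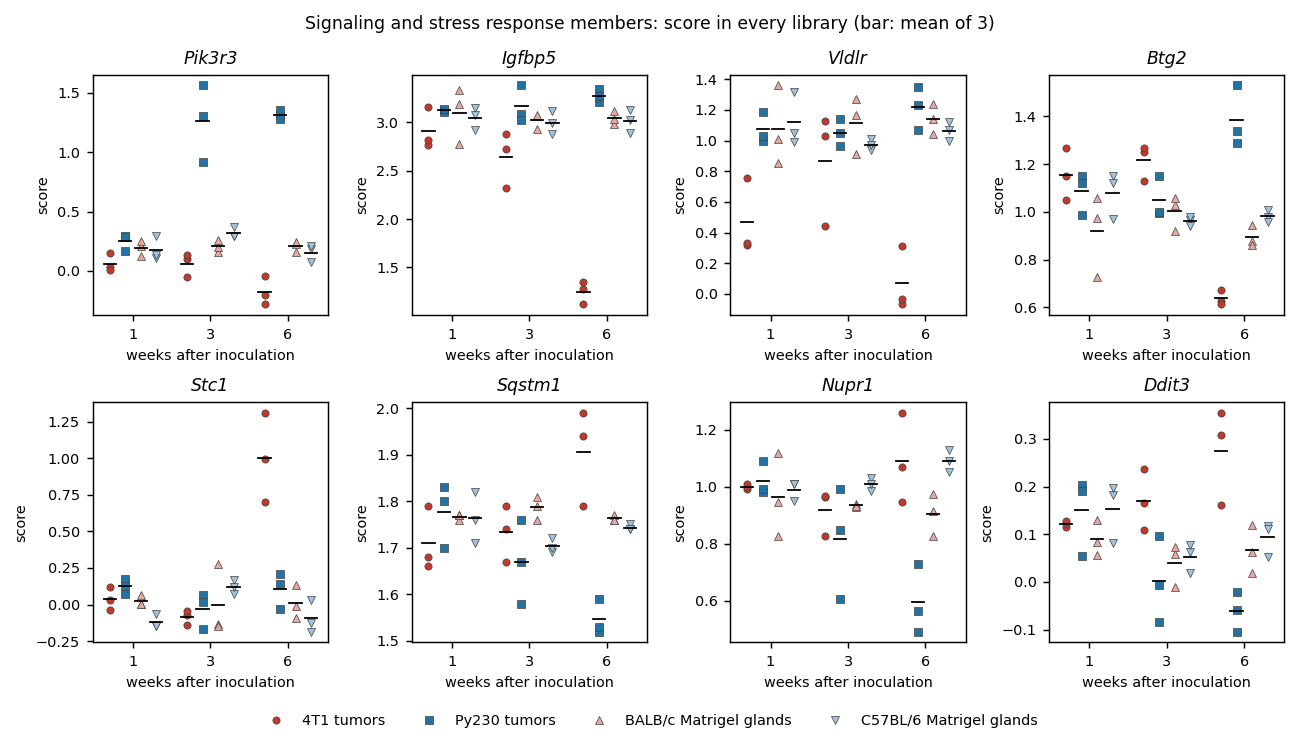
Scores (y axis, score units) of stress response and signaling members in each library by group and week p.i. (x axis), with 1 point per library and the group mean as a bar. At week 6 p.i. the 4T1 points of Stc1 and Nupr1 lie above and those of Igfbp5 and Pik3r3 below the Py230 points.

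The largest difference of any member was that of Igfbp5, a secreted binding protein of insulin-like growth factors, with 1.12, 1.28 and 1.35 in the 4T1 tumors of week 6 p.i. against 3.34, 3.21 and 3.27 in the Py230 tumors (-2.02 ± 0.128, limma adjusted p = 1.5e-12). The BALB/c glands of that week had 2.98, 3.03 and 3.12, so the 4T1 tumors lay below their own glands as well. Pik3r3, a regulatory subunit of phosphoinositide 3-kinase, the input to mTORC1 from growth factors, had -0.205, -0.28 and -0.0453 against 1.31, 1.28 and 1.35 (-1.49 ± 0.0926, limma adjusted p = 1.1e-12). Its difference was already -1.20 at week 3 p.i. (-0.0495, 0.102 and 0.131 against 1.56, 1.30 and 0.918, limma adjusted p = 3.4e-10) and was -0.190 and not called at week 1 p.i. Pik3r3 rose in the Py230 tumors by 1.01 from week 1 to week 3 p.i. (limma adjusted p = 6.1e-08) and differed by 0.00011 in the 4T1 tumors. Vldlr had -0.0686, 0.311 and -0.0369 against 1.23, 1.35 and 1.07 at week 6 p.i. (-1.15 ± 0.148, limma adjusted p = 5.0e-07). Sytl2, an effector of secretory vesicle transport, had -0.0748, -0.0543 and -0.00933 against 0.529, 0.595 and 0.726 (-0.663, limma adjusted p = 1.2e-07). In these 4 genes every 4T1 value lay below every Py230 value.

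Metabolic members that were higher in 4T1 at week 6 p.i. included Hk2, the hexokinase of growing tissue, with 1.30, 1.30 and 1.28 against 0.768, 0.817 and 0.706 (0.530 ± 0.157, limma adjusted p = 0.00816), although after subtraction of the glands it was 0.381 (limma adjusted p = 0.223). The other glycolytic enzymes Gapdh (0.189) and Tpi1 (0.168) were not called. Eno1b had 2.19, 2.22 and 2.06 against 1.73, 1.77 and 1.70 (0.423 ± 0.0838, limma adjusted p = 0.000187) while its near-identical copy Eno1 was not called (0.142), and the counting may have split reads between them. Mthfd2l, a mitochondrial folate enzyme, had 0.476, 0.471 and 0.513 against 0.197, 0.193 and 0.104 (0.323 ± 0.0514, limma adjusted p = 1.2e-05). The serine pathway enzymes Phgdh (-0.119), Psat1 (-0.0988) and Psph (0.0523) and the asparagine synthetase Asns (-0.0107) were not called at that week. Gmps, the last enzyme of GMP synthesis, had 1.17, 1.16 and 1.25 against 1.10, 1.05 and 0.971 (0.156 ± 0.0308, limma adjusted p = 0.000184). P4ha1, a collagen prolyl hydroxylase, had 1.60, 1.74 and 1.52 against 1.15, 1.28 and 1.01 (0.472 ± 0.0739, limma adjusted p = 9.2e-06), after a difference of 0.330 at week 3 p.i. The transcription elongation factor gene Tcea1 differed by 0.118 ± 0.0278 (1.10, 0.975 and 1.05 against 0.918, 0.938 and 0.917, limma adjusted p = 0.00114). Skap2, an adaptor of leukocyte adhesion, had 1.41, 1.27 and 1.41 against 0.894, 0.897 and 0.953 (0.448 ± 0.0647, limma adjusted p = 2.9e-06), although most leukocyte-expressed members (8 of 10) were not called at that week. Gm4907, a gene with no assigned role that may share reads with a paralog, had -0.271, -0.19 and -0.262 against -0.6, -0.521 and -0.642 (0.347 ± 0.0703, limma adjusted p = 0.000243).

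Over the 3 weeks 41 members were called at none, 54 at 1, 26 at 2 and 5 at all 3 (Glrx, Lgmn, Psmb5, Skap2 and Tbk1). These are 32.5%, 42.9%, 20.6% and 3.97% of the members, against 37.7%, 38.5%, 19.3% and 4.48% of all genes, and Psmb5 is among the 5 through its week 1 p.i. call, lost on leaving out any of 28 libraries. Add3 was the 1 member called in both directions, higher at week 3 p.i. (0.176) and lower at week 6 p.i. (-0.195). The difference between the tumors changed from week 1 to week 3 p.i. in 31 members, 5 upward and 26 downward (15.3% of all genes, 4.89% upward and 10.4% downward), and from week 3 to week 6 p.i. in 36 members, 26 upward and 10 downward (26.7% of all genes, 17.8% and 8.88%). The 36 members are 28.6%, close to the share of all genes, and after cyclic loess their split was 14 to 13. From week 1 to week 3 p.i. the largest falls were those of Bub1, the spindle checkpoint kinase (-1.07 ± 0.268, limma adjusted p = 0.01), Pik3r3 (-1.01 ± 0.131, limma adjusted p = 4.5e-05) and Ccnf (-0.811 ± 0.203, limma adjusted p = 0.00999). Bub1 had 0.394, -0.0338 and 0.358 in 4T1 and -0.244, -0.167 and -0.273 in Py230 at week 1 p.i., then 0.148, -0.308 and -0.771 against 0.553, 0.348 and -0.0248 at week 3 p.i., so the order of the tumors turned and the later groups overlapped. All 12 proliferation markers, Bub1 among them, showed the same downward change. The largest upward changes were those of Sytl2 (0.354 ± 0.111, limma adjusted p = 0.0314), Fam129a (0.335 ± 0.111, limma adjusted p = 0.0397) and Ppp1r15a, which recruits the phosphatase of eIF2-alpha (0.331 ± 0.0754, limma adjusted p = 0.0056). The call of Sytl2 was lost on leaving out any of 5 libraries (4T1 replicates 1 and 3 and Py230 replicate 1 of week 1 p.i., and replicate 2 of either line at week 3 p.i.; limma adjusted p 0.061 to 0.0951). That of Fam129a was lost on leaving out any of 8, with the smallest value, 0.246, without Py230 replicate 1 of week 3 p.i. (limma adjusted p = 0.186), and that of Ccnf without the same library (-0.690, limma adjusted p = 0.052).

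Against their own Matrigel glands, the members that were called were mostly higher in the established tumors of both lines. In 4T1 36 members were called at week 1 p.i. (32 higher and 4 lower, 16.6% of all genes called, 9.91% higher and 6.72% lower), 12 at week 3 p.i. (9 higher and 3 lower, 3.25%, 2.1% and 1.15%) and 92 at week 6 p.i. (81 higher and 11 lower, 60.1% of all genes called, 38.6% higher and 21.5% lower). In Py230 no member was called at week 1 p.i. by limma (0.00924% of all genes; 5 members had an unadjusted p under 0.05, and no alternative called one), 37 were called at week 3 p.i. (32 higher and 5 lower, 19.7%, 12.8% and 6.9%) and 69 at week 6 p.i. (57 higher and 12 lower, 47.6%, 28.8% higher and 18.7% lower). The 4T1 count at week 1 p.i. was 0 without the third tumor, 3 without the first and 2 without the second BALB/c gland. At week 3 p.i. it was 0 without the 2 tumors low in fat markers, when the Py230 count was 12. The 4T1 count of week 6 p.i. depended on the scaling. It was 78 (64 higher and 14 lower) after robust rescaling, close in share to the 62.4% of all genes called. After cyclic loess it was 79 (63 and 16, 56.1% of all genes) and after quantile normalization 85 (71 and 14, 59.4%). With the filter on low values 81 of 111 members were called in 4T1 at week 6 p.i., where 65.1% of the genes kept were called. For Py230 that filter gave 62 of 111, close in share to the 54.2% of the genes kept. The 2 comparisons of week 6 p.i. share no library: 46 members (36.5%) were higher in both, against 19.6% of all genes, and 3 (2.38%) were lower in both, against 10.5%. Among the 46 were 9 of the 13 proteasome, ubiquitin and chaperone members, 7 of the 17 ER members, 5 of the 6 transcription and translation members and 4 of the 7 cholesterol members. At week 6 p.i. 12 of 12 proliferation markers were higher and 10 of 11 adipocyte markers lower than in the glands in both lines, and in 4T1 8 of 10 markers of lactating epithelium were lower. Their part in the result was not tested.

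**Figure D4:**
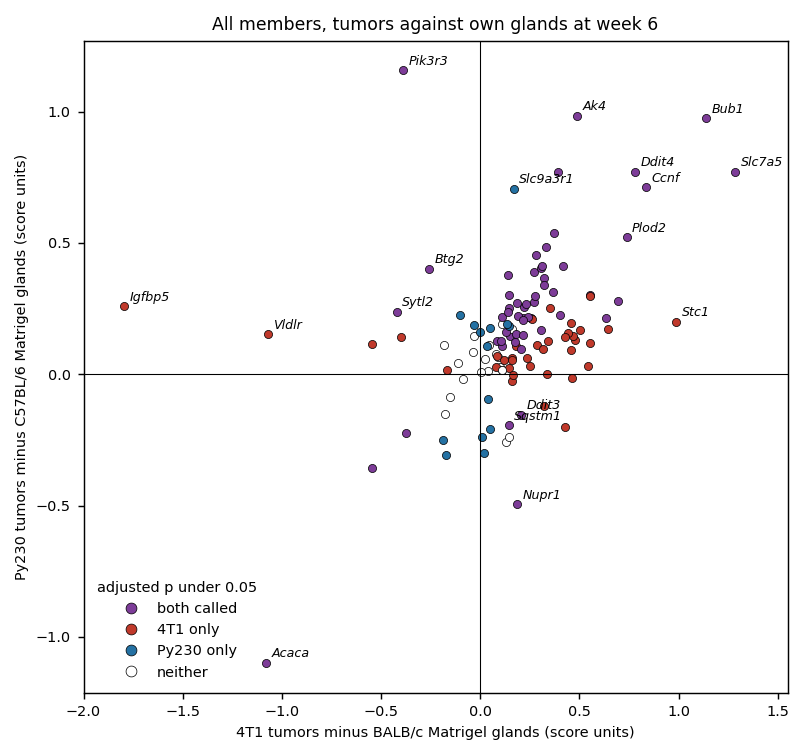
Difference of 4T1 tumors from BALB/c glands (x axis, score units) against that of Py230 tumors from C57BL/6 glands (y axis, score units) at week 6 p.i., with 1 point per member, colored by whether both, one or neither comparison was called. Most points lie in the upper right, 46 of them called in both, and Igfbp5, Pik3r3 and Nupr1 stand away from the rest.

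At week 6 p.i. Slc7a5 was the member most raised over the glands in 4T1. It imports leucine and other large neutral amino acids and feeds mTORC1. Its scores were 1.58, 1.46 and 1.33 against 0.0347, 0.293 and 0.187 in BALB/c glands (1.29 ± 0.141, limma adjusted p = 2.9e-08). In Py230 it had 1.08, 1.16 and 0.960 against 0.332, 0.218 and 0.333 in C57BL/6 glands, a difference of 0.771. Bub1 rose by 1.14 ± 0.19 in 4T1 (0.482, 0.707 and 0.701 against -0.436, -0.257 and -0.828, limma adjusted p = 1.5e-05) and by 0.975 in Py230. In 4T1 both genes were thus higher in every tumor than in every BALB/c gland of that week. In Py230 the same held for Slc7a5 against the C57BL/6 glands. Acaca was lower than in the glands in both lines, with 0.856, 0.899 and 0.951 against 2.13, 1.96 and 1.85 in BALB/c (-1.08 ± 0.254, limma adjusted p = 0.000726) and 1.01, 0.983 and 1.06 against 1.92, 2.33 and 2.10 in C57BL/6 (-1.10, limma adjusted p = 0.0009). In a list of 15 fatty acid synthesis genes 13 were lower than the glands in 4T1.

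Against the glands of week 6 p.i., 6 members were called in opposite directions in the 2 lines. Among them were Btg2 (-0.258 in 4T1 and 0.402 in Py230), Ddit3 (0.207 and -0.155) and Nupr1 (0.185 and -0.495). The others were Pik3r3 (-0.388 and 1.16), Sqstm1 (0.144 and -0.195) and Sytl2 (-0.422 and 0.238). The call of Nupr1 in 4T1 lay near the threshold (limma adjusted p = 0.0433). Sqstm1 in 4T1 had a limma adjusted p of 0.0103 and Ddit3 in Py230 one of 0.0126. The 4T1 values of these genes were not examined under the other scalings, which moved the 4T1 count of that week. These 6 were 4.76% of the members, against 3.37% of all genes, and 4 of them are stress response members. In Py230 Pik3r3 rose most over its glands (1.16 ± 0.0926, limma adjusted p = 1.8e-09), followed by Ak4, a mitochondrial adenylate kinase, with 0.762, 0.846 and 0.467 against -0.301, -0.322 and -0.255 (0.985 ± 0.143, limma adjusted p = 5.3e-06). Nupr1 was the member that fell most after Acaca (-0.495 ± 0.0782, limma adjusted p = 1.5e-05).

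Within each line, calls fell in different intervals, among the members as among all genes. In 4T1 0.794% and then 46.8% of the members were called, and in Py230 29.4% and then 6.35%. From week 1 to week 3 p.i. 1 member was called in 4T1 (Rab1a, -0.127, named after its value was seen, 0.628% of all genes called) and 37 in Py230 (20%), and from week 3 to week 6 p.i. 59 in 4T1 (48 upward and 11 downward, 53%, 34.2% and 18.8%) and 8 in Py230 (6.03%). In 4T1 Stc1 rose by 1.09 and Slc7a5 by 0.969 over the later interval. Few members differed between the Matrigel glands of the strains, 1, 6 and 3 at the 3 weeks (3.06%, 3.77% and 3.84% of all genes; 3 at week 1 p.i. with the replicate block), among them Psmb5 (-0.166) at week 1 p.i., Psph (0.265), Tm7sf2 (0.351) and Eno1b (0.361) at week 3 p.i., and Slc1a4 (0.377) and Lta4h (-0.149) at week 6 p.i. (BALB/c minus C57BL/6).

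**Figure D5:**
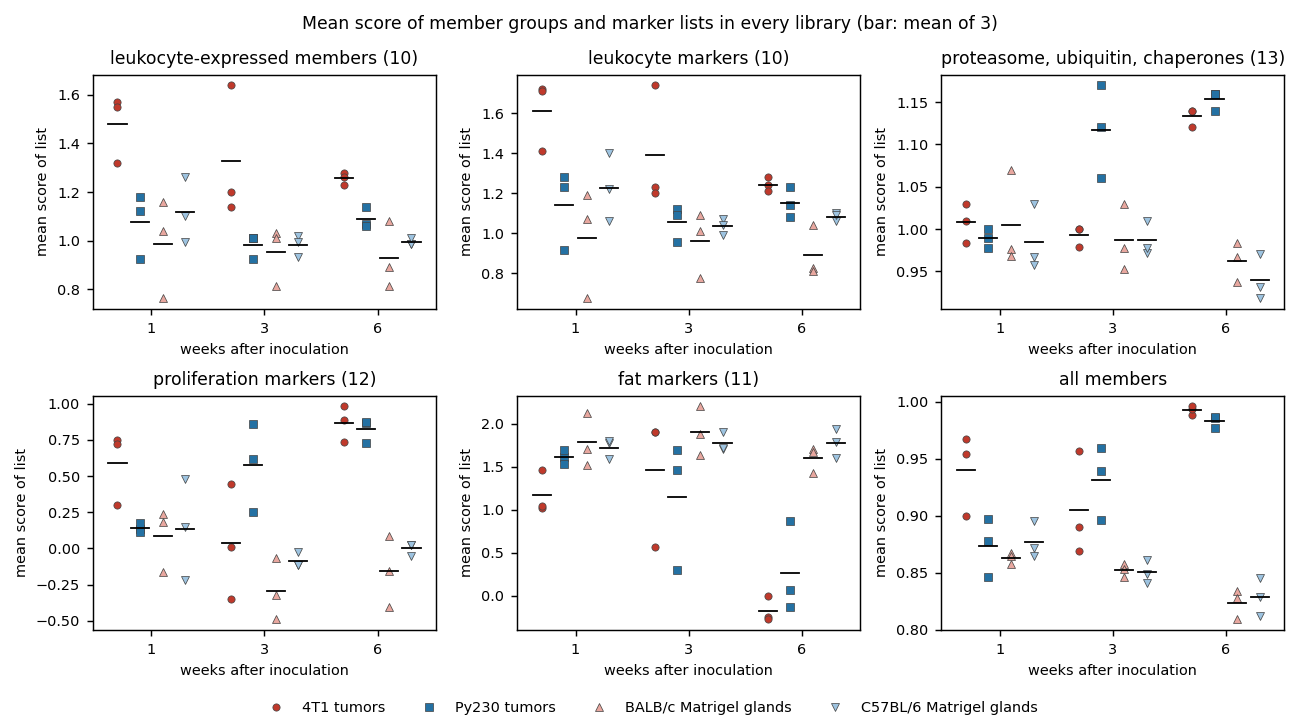
Mean score of all members, of 2 of their role lists and of leukocyte, proliferation and fat marker lists (y axis, score units) in each library by group and week p.i. (x axis), with 1 point per library and the group mean as a bar. The all-member mean is highest in the tumors of week 6 p.i., 0.988 to 0.996 in 4T1 and 0.977 to 0.987 in Py230, and the fat markers show 1 tumor of each line far below the others of its group at week 3 p.i.

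The components and regulators of mTORC1 themselves were called in both directions. Of 39 listed genes 5 were higher and 1 lower in 4T1 at week 1 p.i. (all genes 11% and 8.43%), 7 and 6 at week 3 p.i. (11.9% and 18.5%), and 11 and 7 at week 6 p.i. (24.1% and 16.7%). The higher share at week 1 p.i. and both shares at week 6 p.i. lie close to those of all genes. Mtor, the kinase, differed by -0.0656, 0.120 and 0.271, and was called at week 6 p.i. (limma adjusted p = 9.4e-05). Sesn3, a stress-induced inhibitor of the pathway, was higher by 0.677 at week 6 p.i., and Rraga, a GTPase that brings mTORC1 to the lysosome, was lower by 0.321. The mean score over all members lay above that of every gland (0.809 to 0.895) in all tumors of week 6 p.i. It did so too in the 4T1 tumors of week 1 p.i. (0.9 to 0.967) and the Py230 tumors of week 3 p.i. (0.896 to 0.959). The 4T1 tumors of week 3 p.i. (0.869 to 0.957) and the Py230 tumors of week 1 p.i. (0.846 to 0.897) overlapped with the glands. At week 6 p.i. the mean was nearly the same in the 2 lines, whose members differed gene by gene in both directions. Transcript levels do not measure the activity of the kinase.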

How the data were processed

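Total RNA (stranded libraries, paired-end Illumina reads) was aligned by the authors with STAR to mm10, counted per gene with summariseOverlaps and compared with DESeq2. Versions and the annotation are not given in the sources used here. The authors deposited an expression table whose values are standardized scores (each library has mean 0 and SD 1), a step not described, from which reads could not be recovered. Such values take no count model, so limma (3.58.1, R 4.3.3) was fitted with 1 mean per group over all 36 libraries (24 residual degrees of freedom, trended and robust variance), and p-values were adjusted over 21650 genes. An exact permutation test of 3 against 3 cannot go below p = 0.1. The deposited DESeq2 tables hold the authors' mean normalized counts (unit other), used only as a level, and their fold changes and p-values, which were not used. Standardizing sets every library to the same spread, so a difference depends on all other genes of the library.

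Groups followed the labels. Of 54 same-number pairs 17 correlated above 0.1 in their deviations (-0.543 to 0.789). Among the groups compared with each other only the Matrigel glands of week 1 p.i. correlated above 0.1 in all 3 pairs (0.413, 0.789 and 0.558), so the replicate block is given beside their comparison and otherwise as an alternative. Tests compared the lines at each week, the change in that difference, and each line with its own glands. Alternatives were other scalings, a filter on low values, the libraries of a week alone, a replicate block, subtraction of the glands and leaving out each library. The fit was tested on simulated data. The members, role lists and marker lists were chosen with earlier results of these data known. Genes with values in every library are, by rule, the member of smallest p in each role list, the 3 largest non-overlapping differences each way per week, the 2 largest each way against the glands at week 6 and the 3 largest changes each way from week 1 to week 3. Glrx, Hspa5 and other members beside these were named after their values were seen.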

Additional observations from a re-analysis of the deposited data

Results flagged for a closer look

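The difference between 4T1 and Py230 tumors itself changed with time in some members, by a test of the interaction of line and week (limma, adjusted over all genes). In all, 31 members (24.6%) changed from week 1 to week 3 p.i., against 15.3% of all genes. From week 3 to week 6 p.i. 36 members (28.6%) changed, against 26.7%. Between weeks 1 and 6 p.i. 31 members (24.6%) changed, against 27.4% (11 upward and 20 downward, and 8 and 30 after cyclic loess). The last 2 shares lie close to those of all genes. From week 1 to week 3 p.i. the single members with the largest changes were Bub1 (-1.07), Pik3r3 (-1.01), Ccnf (-0.811), Sytl2 (0.354), Fam129a (0.335) and Ppp1r15a (0.331). The difference of each tumor from its own glands also differed between the lines, in 2 members at week 1 p.i., 21 at week 3 p.i. and 32 at week 6 p.i. (0.305%, 9.15% and 25.5% of all genes). At week 6 p.i. the share of the members, 25.4%, was nearly that of all genes. Groups of 3 libraries were too small for a search for single outlying libraries.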

How the results depend on the processing

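No other scaling moved a count of members called by over 1.5 times except between the glands at week 1 p.i. With the libraries of the week or weeks alone it was 18 (29 in all libraries) and 28 (46) between the tumors at weeks 1 and 3 p.i., 15 (36) and 0 (12) for 4T1 against its glands, 7 (37) for Py230 at week 3 p.i., 0 (1), 0 (6) and 10 (3) between the glands of the strains, and 20 (31) for the change from week 1 to week 3 p.i. Subtraction of the Matrigel glands left 2 and 21 between the tumors at weeks 1 and 3 p.i., and turned Psmb5 at week 1 p.i. to 0.0629. The replicate block gave 3 between the glands at week 1 p.i., robust rescaling and cyclic loess 2 each, and the block moved no other count by over 1.5 times. Of the 45 named values the block ended 1 call, that of Psmb5 at week 1 p.i. The libraries of the week or weeks alone ended 6. These were Ccnf, Phgdh, Psmb5 and Itgb2 at week 1 p.i., and the changes of Sytl2 and Fam129a from week 1 to week 3 p.i. Of the named differences between the tumors, subtraction ended 10 calls, reversed 1 (Psmb5 at week 1 p.i.) and left 20. Without the 2 tumors of week 3 p.i. lowest in fat markers, an alternative chosen after seeing the data, the counts were 22 between the tumors, 0 for 4T1 against glands and 12 for Py230. Leaving out 1 library gave 11 to 36, 24 to 57 and 38 to 51 between the tumors at weeks 1, 3 and 6 p.i., 14 to 50, 24 to 44 and 25 to 38 for the changes from week 1 to 3, 3 to 6 and 1 to 6, 0 to 43, 0 to 26 and 85 to 95 for 4T1 against its glands, 0, 11 to 49 and 59 to 74 for Py230, and 0 to 4, 0 to 7 and 0 to 6 between the glands. Fewer samples enter those fits. Read depth is unknown, so a difference that was not called may lie below what these libraries could show.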
